A study of Mus musculus with 14 samples.

Results

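Retnla, Mrc1, Cd163, Clec10a, Folr2, Lyve1 and F13a1 are 7 genes used as markers of resident or alternatively activated macrophages, the tissue phagocytes that clear debris and keep inflammation low. They were taken by name, with every probe set annotated to them, which gave 8 probe sets for 7 genes among 12393 genes on the array. All 7 passed the filter on dim genes that left 7436 for testing. The genes were selected on their signals in these same arrays, which were low in UU, so their differences between UU and either other group are a description. Counts of these genes past a threshold in those comparisons are set beside the share of all genes, and nothing is read from them, since the choice of genes favours them.

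Affymetrix arrays were used to measure expression in the epididymal fat pad, the white fat beside the testis, of 14 ICR mice labelled male at 3 weeks of age. The UC mice (n = 5) had dams held to a 50% food restriction in pregnancy and were then nursed with food freely available. The UU mice (n = 4) shared that prenatal 50% restriction, which was kept up through suckling. The CC mice (n = 5) came from dams fed freely throughout. UC against CC asks what is left of a restriction limited to gestation, UU against CC what restriction over both periods does, and UC against UU what ample nursing changes after the same prenatal restriction. Litters are not given in the labels, so p-values rest on the spread between these arrays, and the number of arrays limits the precision.

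Adipose tissue holds a resident population of macrophages that settle along vessels and in the stroma and renew slowly. Interleukin-4 and interleukin-13, released by eosinophils, innate lymphoid cells and T cells, act through the receptor chain IL4Ra and the transcription factor STAT6 to switch macrophages to the alternative state, in which they secrete proteins such as RELMa (the product of Retnla) and carry scavenger and lectin receptors. Colony-stimulating factor 1 and its receptor keep the cells alive. Some of the 7 genes are not confined to macrophages: Retnla is also expressed by airway epithelium in mice, Lyve1 by lymphatic vessels and F13a1 by megakaryocytes.

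The arrays differed in Xist signal, tissue content and RNA integrity, and some of these traits were uneven between the groups. Xist, the X-inactivation RNA of females, had a signal of 5642.5 in UC replicate 5 and 3980.6 in CC replicate 2, both labelled male, and at most 1324.3 in the other 12 arrays. Gpx5, an epididymal glutathione peroxidase, was under 2000 in 4 arrays (UC replicates 2 and 5, CC replicates 2 and 4) and at least 5710.8 in the other 10, which include all 4 UU arrays. The log2 ratio of the 3' to the 5' control probe sets, a sign of RNA integrity, was over 1.5 in UC replicates 1 and 4 and UU replicate 3. That ratio averaged 1.22 in UC, 1.15 in UU and 0.71 in CC. The liver transcript Alb reached 25660.3 in UC replicate 2 and at most 3190.5 elsewhere. Its signal was at least 1324.0 in UC and at least 1022.0 in UU, but at most 961.9 in CC. Of 12 adipocyte markers, the 10 on the array all passed the signal filter, led by Fabp4, Lpl and Adipoq. Values are given with and without the arrays that stand apart where it matters.

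Retnla had the widest range of the 7 genes, 22.58-fold between its highest and its lowest array. The stretch upstream of its start is shown because it is the one member window that held a match to the STAT6 letters. RefSeq (GRCm38.p6) gave windows of 250 bases before to 50 after a start site for 5 of the 7 genes, 7 windows in all. In the Retnla window, chr16:48842359-48842658 on the + strand, the capitals mark, in order, PU.1 letters read on the other strand, STAT6 letters and C/EBP letters:
Retnla: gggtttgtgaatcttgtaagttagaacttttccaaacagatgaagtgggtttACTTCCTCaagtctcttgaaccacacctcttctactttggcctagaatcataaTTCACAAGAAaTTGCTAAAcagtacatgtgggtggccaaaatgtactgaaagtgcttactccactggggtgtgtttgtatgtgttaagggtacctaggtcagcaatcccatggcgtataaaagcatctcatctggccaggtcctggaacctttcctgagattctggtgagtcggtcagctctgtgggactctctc

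Motifs were searched on both strands as STAT6 (TTC, any 4 bases, then GAA, which reads the same on both strands), C/EBP (TTGCNNAA) and PU.1 (GAGGAAGT), the factors of interleukin-4 signalling and of the myeloid lineage. STAT6 letters lay 145 to 136 bases before the Retnla start, C/EBP letters 134 to 127 bases before it, and PU.1 letters 198 to 191 bases before it, with no overlap among them. Of 32851 promoter windows of the same length, 7.0% held the STAT6 letters, 10.8% the C/EBP letters, 3.2% the PU.1 letters and 0.0426% (14 windows) all 3. F13a1 had a pair of windows, of which the one at chr13:37049164-37049463 on the - strand, held PU.1 letters, marked in capitals, just after the start:
F13a1: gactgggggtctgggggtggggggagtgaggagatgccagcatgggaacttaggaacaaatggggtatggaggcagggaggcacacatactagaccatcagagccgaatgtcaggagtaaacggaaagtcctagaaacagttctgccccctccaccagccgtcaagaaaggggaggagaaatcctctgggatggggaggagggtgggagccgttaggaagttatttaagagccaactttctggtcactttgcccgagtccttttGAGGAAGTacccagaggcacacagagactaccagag
The other 5 windows held none of these letters, and a match is a stretch of letters, not a measured site.

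Retnla, which encodes the secreted protein RELMa, was lowest in the UU mice. Its signal (probe set 1449015_at) was 23700.5, 30291, 18113, 32422 and 62092 in UC replicates 1 to 5, 2749, 4083, 4048 and 9768 in UU replicates 1 to 4, and 26416, 23470.0, 16089, 48729.6 and 12092 in CC replicates 1 to 5. Every UU array lay below every UC and every CC array, while the UC and CC values overlapped over most of their range. Retnla averaged 33324 ± 17041 in UC (SD, n = 5), 5162 ± 3133 in UU (n = 4) and 25359 ± 14255 in CC (n = 5). The log2 difference was 2.72 ± 0.42 (SE) for UC against UU and -2.29 ± 0.42 for UU against CC, which is 6.59-fold higher in UC than in UU and 4.89-fold lower in UU than in CC on the log2 mean. Without the 2 arrays with Xist signal these differences were 2.46 and -2.28.

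Mrc1 encodes the mannose receptor CD206, a lectin that takes up glycoproteins. Its signal (1450430_at) was 7642, 9490.5, 6487, 8631 and 11458 in UC replicates 1 to 5, 2809, 4625, 4474 and 3598 in UU replicates 1 to 4, and 6167, 10125, 7294, 9285 and 6233 in CC replicates 1 to 5. As for Retnla, the highest UU array was below the lowest array of either other group. The spread within groups was the smallest of the 7 genes, with a coefficient of variation between 21.6% and 23.0%. Mrc1 differed by 1.17 ± 0.21 on the log2 scale for UC against UU and by -1.0 ± 0.21 for UU against CC, so that UU fat held 0.499 times the CC signal. Without the 2 arrays with Xist signal the values were 1.06 and -0.90.

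F13a1 encodes the A chain of coagulation factor XIII, the transglutaminase that crosslinks fibrin and matrix and that resident macrophages make. Its signal (1448929_at) was 5290.5, 8943, 6199, 7643 and 14659 in UC replicates 1 to 5, 2054.5, 4846, 3670.2 and 3669.6 in UU replicates 1 to 4, and 7252, 16701.5, 6413, 13892 and 7288 in CC replicates 1 to 5. The UU arrays again formed the 4 lowest values, and the 3 highest were all in arrays with Gpx5 under 2000. The log2 difference was 1.23 ± 0.34 for UC against UU and -1.48 ± 0.34 for UU against CC, and 1.01 and -1.28 without the 2 arrays with Xist signal.

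Folr2 encodes the folate receptor beta that marks tissue-resident macrophages. It had signals (1451648_a_at) of 1451, 2303.5, 1146, 2272 and 4323 in UC replicates 1 to 5, 929.5, 1366, 1128 and 1593 in UU replicates 1 to 4, and 2469, 2357, 1758, 3366.5 and 1961 in CC replicates 1 to 5. All UU arrays were below all CC arrays, but UC replicate 3 fell below 2 of the UU arrays. The log2 difference was 0.74 ± 0.31 for UC against UU and -0.90 ± 0.31 for UU against CC. That of UC against UU rested partly on UC replicate 5, without which it was 0.47, and it was 0.33 without the 4 arrays of low Gpx5.

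Clec10a encodes MGL1, a lectin for galactose and N-acetylgalactosamine that marks alternatively activated macrophages and some dendritic cells. Its signal (1419605_at) was 796.0, 870.3, 942, 957 and 1970 in UC replicates 1 to 5, 253, 1082, 277 and 855.5 in UU replicates 1 to 4, and 1471, 2662, 839.6, 2412 and 1307 in CC replicates 1 to 5. UU fat was split, with replicates 1 and 3 far below every other array and replicates 2 and 4 inside the UC range. The log2 difference was 0.99 ± 0.43 for UC against UU and -1.59 ± 0.43 for UU against CC, 0.50 and -0.97 with array weights, and 0.76 and -1.41 without the arrays with Xist signal. Here the CC mean of 1738 ± 770.1 stood above the UC mean of 1107 ± 486.6, where for Retnla and Mrc1 the UC mean was the higher one.

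Cd163 encodes the scavenger receptor for haemoglobin bound to haptoglobin. Its signal (1419144_at) was 430.7, 1642, 512, 1278 and 2103 in UC replicates 1 to 5, 243, 546.5, 875 and 406 in UU replicates 1 to 4, and 1214, 3125, 852, 1738 and 449.8 in CC replicates 1 to 5. All 3 groups overlapped, and the highest values, 3125, 2103, 1738 and 1642, were those of the 4 arrays with Gpx5 under 2000. The log2 difference of 1.04 ± 0.54 for UC against UU and of -1.31 ± 0.54 for UU against CC carried the largest standard errors of the 7 genes. Without the arrays with Xist signal these were 0.78 and -0.97, and without the 3 arrays of high 3' to 5' ratio the difference for UC against UU was 1.60.

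Lyve1 encodes a hyaluronan receptor of perivascular macrophages and lymphatic endothelium, and its 2 probe sets did not give one picture. The probe set of higher mean log2 value (1429379_at) read 1411.5, 2218, 1201, 2135 and 2259 in UC replicates 1 to 5, 677, 2262, 1741.5 and 764 in UU replicates 1 to 4, and 1440.5, 1336, 1919, 2545 and 1289 in CC replicates 1 to 5. The groups overlapped, and the log2 difference was 0.56 ± 0.33 for UC against UU, -0.45 ± 0.33 for UU against CC and 0.11 ± 0.32 for UC against CC. Single arrays moved them: UC against UU was 0.30 without UU replicate 1, 0.35 without UU replicate 4 and 0.86 without UU replicate 2, and UU against CC was -0.18, -0.24 and -0.75 without the same arrays and -0.29 without CC replicate 4. The other probe set (1453128_at) read 1626, 2598, 1567, 2111 and 3312 in UC replicates 1 to 5, 838.5, 1316, 1056 and 648 in UU replicates 1 to 4, and 1204, 1151.5, 1164, 1574 and 863 in CC replicates 1 to 5. All 5 UC arrays exceeded the highest UU array in that probe set, and 4 of the 5 exceeded the highest CC array. Fitted on its own among all probe sets, it differed by 1.18 ± 0.25 for UC against UU, by -0.32 ± 0.25 for UU against CC and by 0.86 ± 0.23 for UC against CC (limma adjusted p = 0.462).

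**Figure D1:**
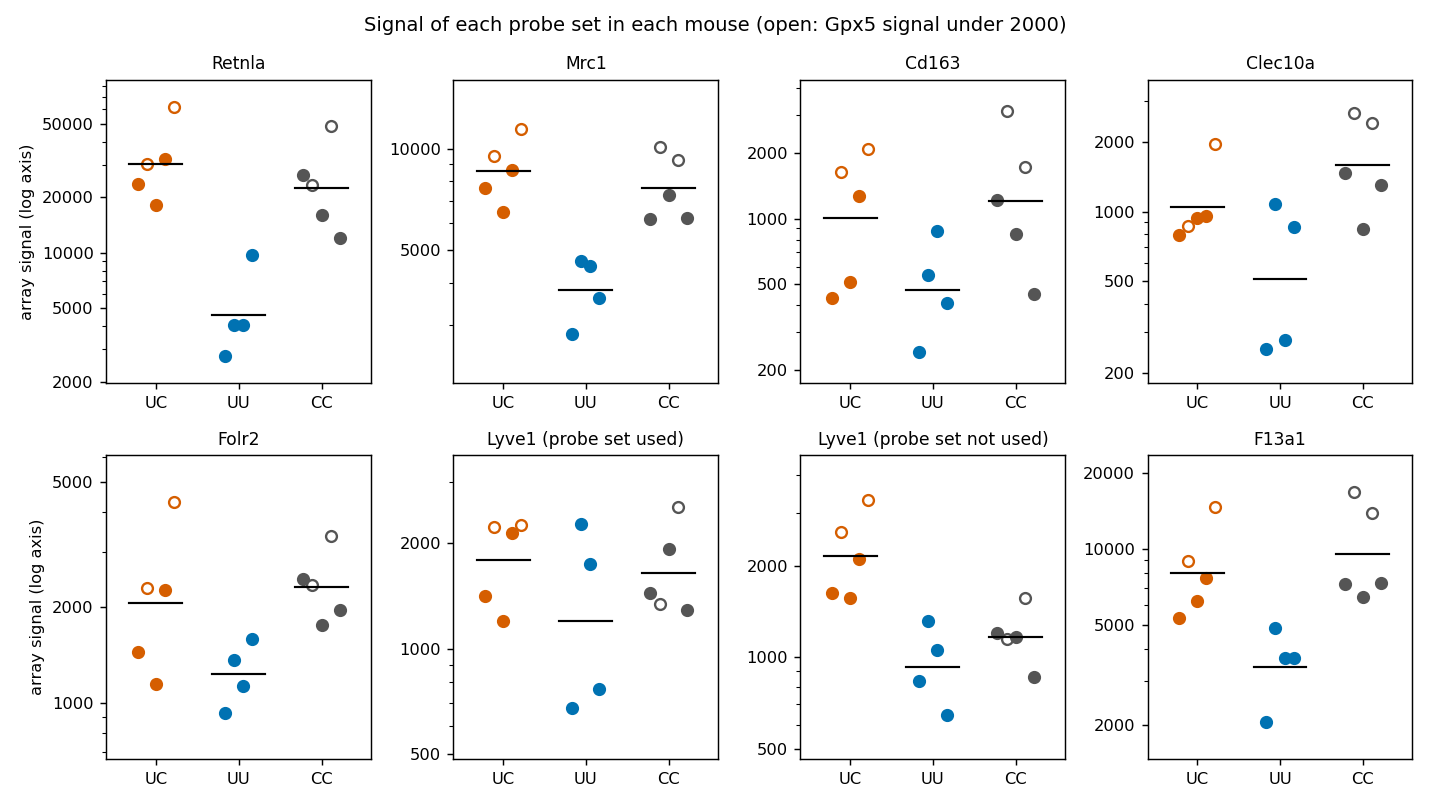
Signal of each of the 8 probe sets on a log axis in each mouse, for UC (n = 5), UU (n = 4) and CC (n = 5). Open points are the 4 arrays with a Gpx5 signal under 2000 and bars are means of the log2 values. In Retnla, Mrc1 and F13a1 every UU point lies below every other point, while in Cd163, Clec10a and the Lyve1 probe set used the groups overlap.

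Some arrays ranked high or low in most of the 7 genes. After group means were removed, each gene's Pearson r with the mean of the 7, which contains it, ran between 0.636 (Lyve1) and 0.947 (F13a1). UU replicate 1 had the lowest value of all 14 arrays in all 7 genes. UC replicate 5 was among the top 3 arrays in all 7 genes and the highest in 3, CC replicate 4 was among the top 3 in 6, and CC replicate 2 was the highest in 3. UC replicate 5, CC replicate 4 and CC replicate 2 all had Gpx5 under 2000, and UC replicate 5 and CC replicate 2 were the arrays with Xist signal. The UU arrays filled all 4 of the lowest places in Retnla, Mrc1 and F13a1, 3 of them in Folr2, and 2 of them in Cd163, Clec10a and Lyve1. The low UU signals by which the genes were picked favour these places.

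In UC against CC none of the 7 genes was called, at a limma adjusted p under 0.05, in a comparison in which 0 of 7436 genes (0%) were. At an unadjusted p under 0.05 the count was again 0 of 7, against 651 of all genes (8.75%). The members' adjusted p ran between 0.682 for Clec10a and 0.939 for Lyve1. Differences were 0.43 ± 0.40 for Retnla, 0.16 ± 0.20 for Mrc1, 0.11 ± 0.32 for Lyve1, -0.16 ± 0.29 for Folr2, -0.25 ± 0.32 for F13a1, -0.27 ± 0.51 for Cd163 and -0.60 ± 0.41 for Clec10a, all on the log2 scale. These counts and values take 1 probe set per gene and leave out the other Lyve1 probe set. That one differed by 0.86 ± 0.23 (limma adjusted p = 0.462 among all probe sets). Of the 7 genes, 4 were below 0 (50.5% of all genes were) and 3 above it, with a median of -0.16 against 0.00 for all genes tested. No gene had its UC arrays all above or all below the CC arrays, which 75 genes (1.01%) and 58 genes (0.78%) did. With standard errors up to 0.51, these comparisons do not show that the groups were alike.

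In UU against CC all 7 genes were lower in UU, as were 44.6% of all genes, and the median over the members was -1.31 against 0.05 for all genes. None of the 7 was called at an adjusted p under 0.05, and neither was any other gene (0%), while 1218 genes had an unadjusted p under 0.05. At an unadjusted p under 0.05, 6 of the 7 were lower, with Lyve1 outside, against 576 of all genes (7.75%). Retnla, Mrc1, Folr2 and F13a1, 4 of the 7, had every UU array below every CC array, as had 270 of all genes (3.63%). These counts follow from how the genes were picked.

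In UC against UU all 7 genes were higher in UC, as were 43.3% of all genes, and their median was 1.04 against -0.06 for all genes. Retnla and Mrc1 were among the 60 genes past an adjusted p of 0.05 (0.807%), of which 51 were higher in UC (0.686%). At an unadjusted p under 0.05 the count was 5 of 7, against 682 of all genes higher in UC (9.17%), with Cd163 and Lyve1 outside. Retnla, Mrc1 and F13a1 had every UC array above every UU array, as had 260 genes (3.5%). As in UU against CC, the low UU signals by which the genes were picked favour these counts, which therefore support nothing, and both comparisons rest on the same 4 UU mice. Retnla and Mrc1 no longer passed when UC replicate 2, UC replicate 4 or UU replicate 1 was left out, each of which left 0 genes called, and Mrc1 did not pass without UC replicate 5 or UU replicate 4, or with only the 2 groups fitted. Neither passed without the 2 arrays with Xist signal, which left 3 genes called, without the 4 of low Gpx5 (1 called) and without the 3 of 3' to 5' ratio over 1.5 (2 called), or with the general macrophage level as a covariate, chosen after seeing the data, which left 0 genes called and a median over the members of 0.40.

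**Figure D2:**
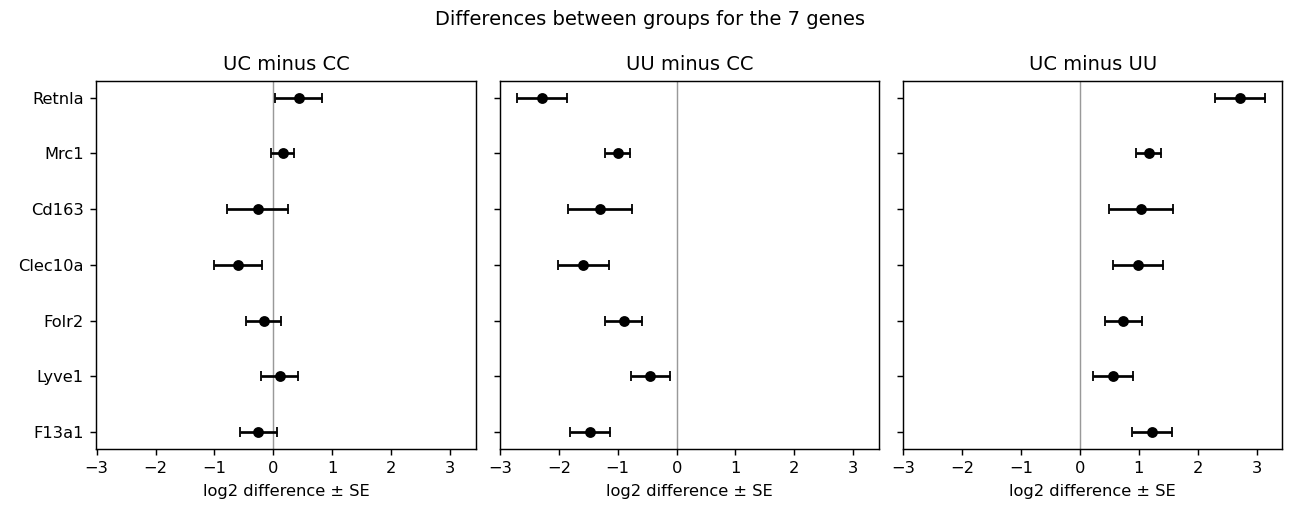
Log2 difference with its standard error for the 7 genes in UC minus CC, UU minus CC and UC minus UU, from a fit to all 14 arrays. Points lie on both sides of 0 for UC minus CC, between -2.29 and -0.45 for UU minus CC, and between 0.56 and 2.72 for UC minus UU.

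The UU arrays all carried epididymal transcripts, and the 4 arrays that lacked them held many of the highest values, so the groups were also set side by side among the 10 arrays with Gpx5 of at least 2000. There the 7 genes stayed lower in UU than in CC, with a median of -0.78, and higher in UC than in UU, with a median of 0.77. Retnla averaged 24745 in 3 UC mice, 5162 in 4 UU mice and 18199 in 3 CC mice, a log2 difference of -1.90 for UU against CC and 2.38 for UC against UU. Mrc1 averaged 7587 in UC, 3877 in UU and 6565 in CC, a difference of -0.78 for UU against CC and 0.98 for UC against UU. Cd163 shrank most, to -0.69 and 0.46. Within the 4 arrays of low Gpx5, 2 UC against 2 CC, the median was 0.10, with Clec10a at -0.93 and Retnla at 0.36, and no UU array allowed that comparison.

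Most general macrophage markers had differences of the same sign as the 7 genes. Of 19 such genes 14 were tested (Itgam, Fcgr1, Aif1, Cybb and Cx3cr1 were too dim), and 12 of the 14 were below 0 in UU against CC, with a median of -0.75, a median of 0.71 for UC against UU and -0.09 for UC against CC. None was called in any comparison. The brightest were Lyz2, the myeloid lysozyme gene, whose probes may also read the near-identical Lyz1 (-1.82 ± 0.48 for UU against CC), the protease gene Ctss (-1.18 ± 0.46) and the galectin gene Lgals3 (0.43 ± 0.46). The summed signal of all 19 ranged over 26550.3 to 68392 in UC, 20249 to 27454 in UU and 25392 to 94852 in CC. In bulk tissue, fewer macrophages and less of these RNAs per macrophage cannot be told apart.

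The 7 genes were therefore also expressed per array relative to the mean log2 level of the 14 general markers, a scale on which differences between arrays can be read but not levels of one probe set against another. Their mean stood 0.92 ± 0.16 above that level in UC (SD, n = 5), 0.29 ± 0.24 above it in UU (n = 4) and 0.82 ± 0.31 above it in CC (n = 5). The UU values ran between -0.06 and 0.45 and those of UC between 0.72 and 1.17, without overlap. The low UU signals by which the genes were picked favour such a gap, from which nothing is read. Of the 14 general markers, 2 were above 0 in UU against CC, which also lowers the relative values in UU. In CC, replicate 2, an array with Xist signal, lay at 0.31, inside the UU range, and the other 4 arrays lay between 0.72 and 1.07, above that range. The differences were -0.53 for UU against CC, 0.63 for UC against UU and 0.10 for UC against CC, and -0.65, 0.63 and -0.03 without the arrays with Xist signal.

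Retnla had the largest difference on this scale. It stood between 3.75 and 4.19 in UC, between 1.39 and 2.88 in UU and between 2.47 and 4.13 in CC, with a difference of -1.53 for UU against CC and 2.14 for UC against UU. F13a1 lay between 1.75 and 2.29 in UC, between 1.02 and 1.63 in UU and between 1.84 and 2.42 in CC, so that the UU arrays stayed below all others. The share of all genes so separated on this scale was not computed, and the choice of genes favours it. Mrc1 lay between 1.76 and 2.37 in UC, between 1.44 and 1.77 in UU and between 1.26 and 2.20 in CC, so that all 3 groups overlapped, and its difference was -0.24 for UU against CC and 0.59 for UC against UU. Cd163 differed by -0.55 and 0.46 and Clec10a by -0.83 and 0.41 in those comparisons, with overlapping groups. Lyve1 differed by 0.31 for UU against CC and Folr2 by -0.14, less than the spread within either group.

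**Figure D3:**
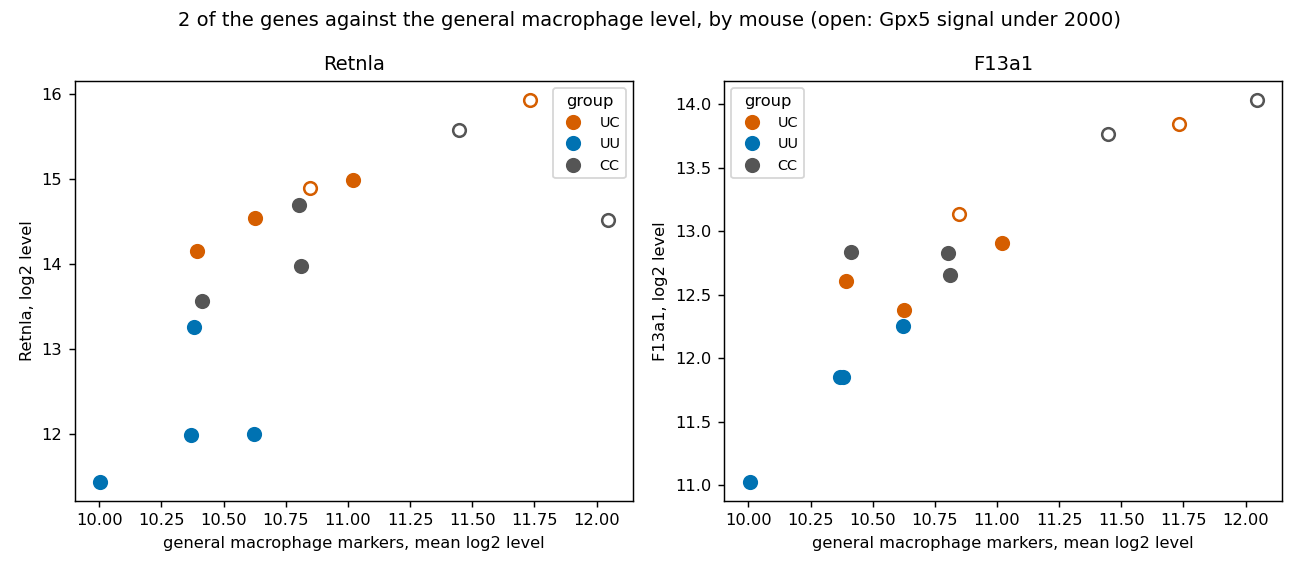
Log2 level of Retnla (left) and F13a1 (right) in each mouse against the mean log2 level of 14 general macrophage markers, for UC (n = 5), UU (n = 4) and CC (n = 5), with open points for Gpx5 under 2000. Every UU point lies below every UC and CC point in both panels, in genes picked for low UU signals. General marker levels were 10.37 to 10.62 in 3 of the UU mice. UC replicate 3 (10.39) and CC replicate 5 (10.41) lie in that range, and UC replicate 1 (10.63) lies just above it.

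Other genes of resident macrophages were read from a list of 30, of which 22 were tested. Of the 22, 18 were below 0 in UU against CC, with a median of -0.60, and the median was 0.51 for UC against UU and 0.01 for UC against CC. One was called, Ccl6, a chemokine of mouse myeloid cells, with a signal of 6368 ± 3629 in UC (SD, n = 5), 1189.5 ± 665 in UU (n = 4) and 6131 ± 4411 in CC (n = 5). Its log2 difference was 2.37 ± 0.50 for UC against UU (limma adjusted p = 0.0411). Like every other gene, Ccl6 was not called without UC replicate 2, UC replicate 4 or UU replicate 1, or with the general macrophage covariate. The list was drawn up with earlier results of these data known. The brightest of the list are not made by macrophages alone. The selenium carrier gene Selenop differed by -0.39 ± 0.24 for UU against CC, the growth factor gene Igf1 by -0.52 ± 0.31 and the chemokine gene Pf4 by -0.61 ± 0.28.

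Genes of the interleukin-4 and interleukin-13 pathway were split in direction. Of 18 genes 15 were on the array and 9 tested, 5 below and 4 above 0 in UU against CC, with a median of -0.20 (0.26 for UC against UU and -0.12 for UC against CC), and none was called. The ligand genes Il4, Il13 and Il5, the receptor gene Il4ra and the factor genes Irf4 and Ppard were under the signal filter, so their levels are not readable here. The brightest were the kinase gene Jak1 (-0.41 ± 0.18 for UU against CC), Pparg, the fat cell and macrophage nuclear receptor (-1.01 ± 0.29), and the factor gene Klf4 (-0.57 ± 0.21). Stat6 differed by -0.195 ± 0.147 for UU against CC and 0.402 ± 0.147 for UC against UU. All of these named genes are among the 5 below 0 in UU against CC, with 4 others above it. Pparg is also an adipocyte marker.

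Other products of alternative activation gave little to read, since 11 of 15 were too dim, among them Chil3 (a chitinase-like protein), Arg1 (arginase) and Ccl24 (a chemokine for eosinophils). The median of the 4 tested was 0.05 for UU against CC, -0.08 for UC against UU and -0.03 for UC against CC, and none was called. The brightest of them were the transglutaminase gene Tgm2 (0.03 ± 0.18 for UU against CC), Cdh1, the epithelial cadherin (1.73 ± 1.04), and the cytokine inhibitor gene Socs2 (0.07 ± 0.26). These 3 were above 0, while Mgl2, the other gene tested, was below it (-0.40 ± 0.29 for UU against CC, 0.46 ± 0.29 for UC against UU). Of 20 inflammatory activation genes 14 were too dim, including Tnf, Il1b, Il6 and Nos2, and the 5 tested had a median of -0.16 for UU against CC and 0.40 for UC against UU, with none called. The brightest were Irf5, an interferon regulatory factor gene (0.47 ± 0.22 for UU against CC), the chemokine gene Ccl4 (0.28 ± 0.21) and Saa3, an acute-phase protein gene (-1.32 ± 0.85).

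In the colony-stimulating factor 1 axis, 4 of 8 genes were tested and none was called. The receptor gene Csf1r had a signal of 28373 in UC, 11873 in UU and 21781 in CC, with differences of 1.28 ± 0.37 for UC against UU and -0.87 ± 0.37 for UU against CC. Its ligand gene Csf1 differed by 0.12 ± 0.18 and -0.11 ± 0.18 in the same comparisons, and Spi1, which encodes the myeloid factor PU.1, by -0.07 ± 0.26 and 0.08 ± 0.26. The list median was -0.12 for UU against CC.

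**Figure D4:**
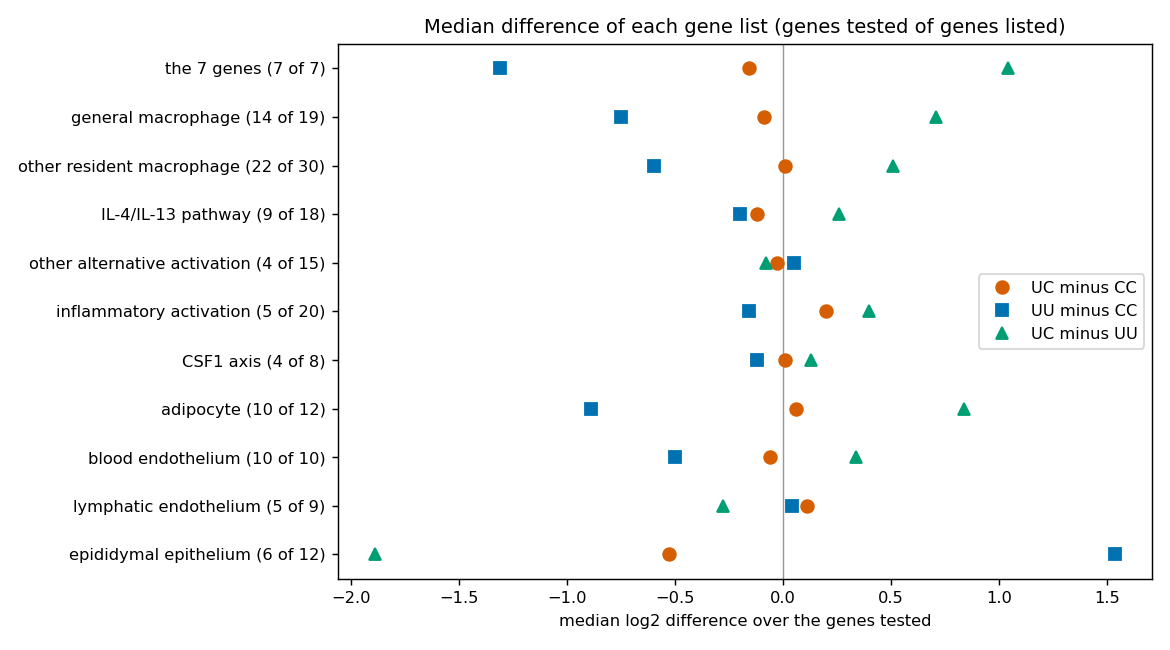
Median log2 difference over the genes tested of each list, with genes tested of genes listed beside its name, for UC minus CC (circles), UU minus CC (squares) and UC minus UU (triangles). The 7 genes lie at -1.31 for UU minus CC, general macrophage markers at -0.75, the interleukin pathway at -0.20 and epididymal markers at 1.54.

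Relatives of the 7 genes had differences of either sign. Of 13 relatives 5 were tested and none was called in any comparison. Retn, the resistin gene of mouse fat cells and of the same family as Retnla, had a signal of 41419 in UC, 30468 in UU and 33005 in CC, differing by -0.13 ± 0.24 for UU against CC and 0.43 ± 0.24 for UC against UU. Mgl2, a lectin gene closely related to Clec10a, differed by -0.40 ± 0.29 and 0.46 ± 0.29 in the same comparisons, the hyaluronan receptor gene Cd44 by -0.67 ± 0.29 and 0.82 ± 0.29, the folate receptor gene Folr1 by 0.50 ± 0.28 and -0.81 ± 0.28, and Pla2r1, of the mannose receptor family, by 0.13 ± 0.26 and -0.01 ± 0.26. Retnlb, Mrc2, Ly75, Izumo1r, Stab2 and F13b were too dim.

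Markers of other cell types that can carry single members were also read. Of the 9 lymphatic endothelial genes, which include Lyve1, 5 were tested, with a median of 0.04 for UU against CC and a summed signal of 8210.1 to 10781 in UC, 7543 to 12018 in UU and 7531 to 12138 in CC. Its defining factor gene Prox1 was too dim, and besides Lyve1 the brightest were Pdpn (-0.18 ± 0.23 for UU against CC) and Nrp2 (0.04 ± 0.22). Of the 9 platelet genes, which include F13a1, 5 were tested with a median of 0.08, and Ppbp, Gp9, Gp5 and F2rl3 were too dim. The summed signal was 13742 to 29447 in UC, 8596 to 12761 in UU and 13945 to 28318 in CC. F13a1 and Pf4, which is also on the resident macrophage list, lead that sum, so it is no separate reading of platelets. These 2 were below 0 in UU against CC, and the other 3 tested were above it. Besides F13a1 and Pf4, the brightest platelet gene was Treml1 (0.64 ± 0.22 for UU against CC). None of the 6 eosinophil genes on the array passed the filter, among them Siglecf, Epx and Prg2. Of 10 dendritic cell genes 2 were tested, Cd83 (-0.72 ± 0.33) and Fscn1 (-0.26 ± 0.23).

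Adipocyte, endothelial and epididymal markers were read in the same way, and none was called in any comparison. Of 10 adipocyte markers, 9 were below 0 in UU against CC, with a median of -0.89 (0.84 for UC against UU) and -0.77 ± 0.24 for the adiponectin gene Adipoq, and their mean log2 level was 14.05 to 14.74 in UC, 13.17 to 13.99 in UU and 13.9955 to 14.79 in CC. All 10 blood endothelial markers were below 0 in UU against CC, with a median of -0.50. Of 6 epididymal markers tested, 5 were above 0, with a median of 1.54. The mean log2 level of all 7 on the array, 1 of them too dim to test, was 7.18 to 12.47 in UC, 11.07 to 12.87 in UU and 7.18 to 13.27 in CC. The part of these tissue differences in the values of the 7 genes was not tested.

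The genes most like Retnla over the 14 arrays were Ctsb, a lysosomal protease gene (Pearson r = 0.933, and 0.849 after group means were removed), Orm1, an acute-phase protein gene (0.927 and 0.890), Npr3, the natriuretic peptide clearance receptor gene (0.925 and 0.743), Loxl1, a matrix crosslinking enzyme gene (0.919 and 0.760), and Anxa1, the annexin A1 gene (0.913 and 0.618). Among the 7 genes, Mrc1 was the most like Retnla over all arrays (0.896) and Lyve1 the least (0.506). After group means were removed these were 0.577 and 0.308, and Folr2 was the most like Retnla (0.869). For the mean log2 level of the 7 genes the nearest were Lyz1 (0.965), Cd209g, a C-type lectin gene (0.960), Ctsb (0.958), the prion protein gene Prnp (0.949) and Tyrobp, a myeloid adaptor gene (0.948). Of the 7 genes F13a1 was nearest that mean (0.975), which contains it. These values describe arrays that share tissue make-up and groups.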

How the data were processed

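RNA of epididymal fat from 14 mice was hybridised to single-channel Affymetrix arrays. Each deposited value is a linear intensity that the authors computed per probe set (GCOS 1.3 and MAS5 are named in the submitters' processing notes). Array means, with 2% trimmed from either end, were 1500.45 to 1500.57, so all arrays had been scaled alike. Detection calls and scan dates were not used here, and a signal that passed the filter is not a detection call.

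Of 22690 probe sets, 20380 had 1 gene symbol in the platform annotation, 691 several, 1555 none, and 64 were controls. Symbols were updated through Entrez identifiers to RefSeq (GRCm38.p6) for 20351 and kept for 29. The probe set of highest mean log2 value stood for each gene, 32 was added before log2, and genes in the dimmest 40% were dropped. One linear model over 14 arrays was fitted with limma 3.58.1 (R 4.3.3, empirical Bayes with a trend), with Benjamini-Hochberg adjustment over 7436 genes and calls at an adjusted p under 0.05. Differences are limma coefficients ± SE, and other signals are means ± SD. The model was tested on simulated data with 200 genes changed. The labels do not say whether array replicate numbers pair the groups, so the main fit had no replicate block. Correlations were over 0.1 in 6 of 13 same-numbered pairs, which cannot settle whether the numbers pair mice.

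The members, gene lists, design and naming rule were chosen with earlier results of these data known. Named were the 7 genes, the 3 brightest and any called gene of each list, relatives of the 7, and the 5 genes most correlated with Retnla or with the members' mean. Dim genes and Stat6 were named after their values were seen. Alternatives covered pseudocounts 1 and 128, filters, scalings, probe set rules, variance models, array weights, 2 groups only, the replicate block, covariates, an adjusted p of 0.1, and arrays left out. The general macrophage covariate was added after the data were seen. Figures were drawn with matplotlib 3.10.9.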

Additional observations from a re-analysis of the deposited data

Results flagged for a closer look

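Of 33 checks of a probe set or of a mean level within a group, 1 stood out. The mean levels were those of the members, of the general macrophage markers, and their difference. Clec10a in UC replicate 5 had a log2 level of 10.97, while the other 4 UC arrays lay between 9.69 and 9.95, and its gap to the nearest was 0.799 of the group's range, above Dixon's 95% critical value of 0.71 for 5 samples. Chance flags about 1 in 20 groups. UC replicate 5 is also an array with Xist signal and with Gpx5 under 2000, and without the arrays with Xist signal Clec10a differed by 0.76 for UC against UU and by -0.64 for UC against CC.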

How the results depend on the processing

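For UC against CC, 0 genes were called under every alternative run, and the members' median of -0.16 ran between -0.43 and 0.04 with 1 array left out and between -0.22 and 0.11 otherwise. For UU against CC, where 0 genes were called, the count was 11 at an adjusted p under 0.1, 12 with array weights, 7 with the epididymal level as a covariate, 3 with the dimmest 60% left out, 2 with median centring, and 1 each with no filter, quantile normalization, the 3'/5' ratio as a covariate, and without the Xist or the low-Gpx5 arrays; it ran between 0 and 3 with 1 array left out. For UC against UU, where 60 were called, the count was 199 at an adjusted p under 0.1, 115 with the 3'/5' covariate, 100 with median centring, 25 with no filter, 14 with the epididymal covariate, 9 with the 2 groups only, 3 without the Xist arrays, 2 without the arrays of 3'/5' ratio over 1.5, 1 without the low-Gpx5 arrays, 0 with the general macrophage covariate, and 0 to 108 with 1 array left out. Leaving out these sets of arrays puts fewer arrays in the fit.

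The members' median for UU against CC was -0.78 without the low-Gpx5 arrays and -0.58 with the general macrophage covariate, and between -1.57 and -0.97 with 1 array left out. For UC against UU it was 0.40 with the general macrophage covariate and 0.75 to 1.27 with 1 array left out. With that covariate Retnla differed by -1.58 for UU against CC and 2.18 for UC against UU. Without a test, UC against CC turned sign for Cd163 in 4 alternatives and for Folr2 and Lyve1 in 1 each. The members relative to the general markers ran between -0.65 and -0.41 for UU against CC, 0.51 and 0.72 for UC against UU and -0.07 and 0.17 for UC against CC. No member's sign turned in UU against CC or UC against UU in any alternative fit. Relative to the general markers, however, Lyve1 stood at 0.31 and -0.02 in those comparisons, against -0.45 and 0.56 in the main fit. In the sets of alternatives that moved a count, the cause was not tested.

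The replicate numbers are not stated to pair mice, and same-numbered arrays correlated between -0.32 and 0.49 in their deviations from group means. With the replicate block, UU against CC had 7 genes called, and for UC against UU the count was 94.

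Signals near the filter, such as those of the interleukin genes, limit what can be said of the pathway above the 7 genes.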
